A study of Homo sapiens with 54 samples.

Results

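The data address how the transcriptional effects of cigarette smoke extract and of ionizing radiation combined 24 h after irradiation. For each gene the interaction was the change that smoke extract made in irradiated cells minus the change it made in unirradiated cells, on the log2 scale. An interaction of 0 means that the log2 changes of both agents added up, a positive interaction lies above that sum, and a negative interaction lies below it. The comparison used 12 of the 54 arrays of the study and covered 18417 genes, each represented by the transcript cluster with the highest mean among its clusters with exactly 1 gene symbol. Genes were chosen for description by their adjusted p in this comparison and by membership in gene lists.

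All groups used a single established line, NCI-H460, which derives from a large cell lung carcinoma, in medium without serum. The 4 groups of 3 arrays were radiation plus smoke extract, radiation alone, smoke extract alone, and untreated cells. Smoke extract was dosed to hold 5 uM nicotine and was given 2 h before a single exposure to 6 Gy from a cesium source, and RNA was taken 24 h after the radiation step. Parallel groups received 5 uM nicotine in place of smoke extract, 1 uM cisplatin in place of radiation, or were harvested at 2 h. Each agent was used at 1 dose, so additivity was measured at 1 combination of doses. The labels call the arrays of a group biological replicates, all treated concurrently, and the sources used here do not give the culture plate of each. Values are deposited expression levels taken to be on a log2 scale, with no detection calls.

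Radiation breaks DNA and activates checkpoints that halt the cell cycle before replication and before mitosis, partly through p53 and its target p21. Genes of mitosis and of DNA replication are transcribed in waves as cells cycle, mitosis genes under complexes that bind cell cycle elements and CCAAT boxes, and replication genes largely under E2F factors. Smoke extract carries ligands of the aryl hydrocarbon receptor (AHR), which induces CYP1A1, and reactive compounds that activate the antioxidant factor NRF2.

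Arrays of a group correlated at 0.980 to 0.995 over all genes, and no arrays were identical. Mean levels of 360 olfactory receptor genes, which are silent outside sensory tissue and so follow background, were 4.74, 4.90 and 4.49 with both agents, 4.75, 4.77 and 4.62 with radiation, 4.65, 4.55 and 4.75 with smoke extract and 4.63, 4.69 and 4.62 in untreated cells. The 95th percentile of these genes was 6.07, and values below it cannot be separated from background here. Of 8 carcinoma markers 6 lay above that level, led by the keratin gene KRT8 at 11.97, while EPCAM (5.26) and CDH1 (5.09) did not. Markers of leukocytes (4 of 11), fibroblasts (5 of 9) and endothelium (2 of 8) above that level included the lysosomal gene CD68 at 9.43, COL1A1 at 7.56 and EGFL7 at 7.48, whereas PTPRC, which defines leukocytes, stood at 3.41 and DCN at 3.21. Of all these markers 0 were called for the interaction by limma, and 0 had an unadjusted p under 0.05.

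Fewer genes lay above the additive sum than below it. The limma fit called 474 of 18417 genes at an adjusted p under 0.05 (2.57% of those tested), of which 135 (0.733%) lay above the sum and 339 (1.84%) below it. The unadjusted p was under 0.05 for 3085 genes (16.8%), and the median interaction over all genes was -0.03. Over 1.5-fold were 91 of the genes above and 143 of those below. On unlogged values the interaction had the same sign for 135 of 135 and 336 of 339 genes, against 18028 of all 18417. Of the genes below the sum 336 of 339 were protein-coding. Of those above it 108 of 135 were, and 12 were small nucleolar RNAs, 8.89% of the side against 0.950% of all genes tested.

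The number of calls depended on single arrays. Leaving out radiation replicate 3 gave 580 genes above and 918 below, whereas leaving out radiation replicates 1 and 2 in turn gave 47 and 40 above, with 172 below each time. Without untreated replicates 1, 2 and 3 the counts were 77, 77 and 86 above and 211, 182 and 285 below. Without smoke extract replicates 1, 2 and 3 they were 80, 225 and 49 above and 216, 354 and 194 below, and without replicates 1, 2 and 3 of the combination 144, 215 and 62 above and 303, 251 and 339 below. The balance moved as well. The share above the sum was 28.5% of calls, against 39.9% after quantile normalization (301 above and 454 below), 16.4% with only the 12 arrays in the fit (25 above and 127 below) and 12.3% with only the 27 arrays at 24 h (15 above and 107 below). With the olfactory receptor mean as a covariate 135 of 135 and 339 of 339 calls held and the counts were 397 and 728. Of the 65 genes named below that were called, 31 lost the call with only the 12 arrays in the fit and 38 with only the 27.

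The smoke extract effect with radiation followed the effect without it in part. Across 18417 genes, which are not independent replicates, Pearson's r was 0.465 and the slope 0.42 between changes that share no array. Across the 5275 genes (28.6%) called for smoke extract after cisplatin, a choice made on other arrays, r was 0.675 and the slope 0.70. In that setting the median change of the olfactory receptor genes was 0.24, so background may enter the choice, which was not tested. The radiation effect with smoke extract against that without it gave r = 0.613 over all genes, and r = 0.821 with a slope of 0.79 over the 2810 genes (15.3%) called for radiation after nicotine.

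**Figure D1:**
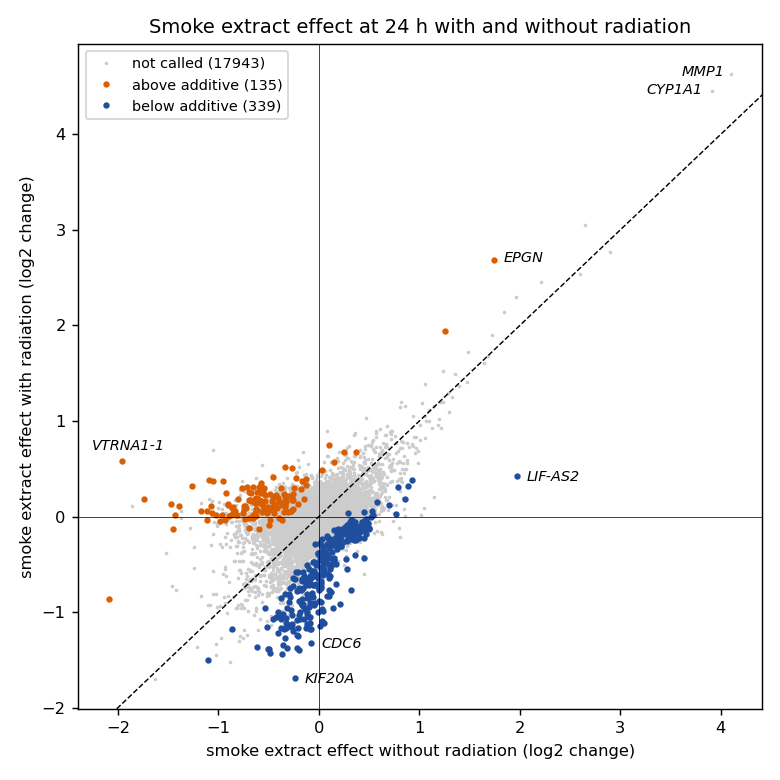
The log2 change with smoke extract in irradiated cells (vertical axis) is plotted against that in unirradiated cells (horizontal axis) for 18417 genes, with a dashed line of equal change. The 339 genes below the sum lie under the line and mostly below 0 on the vertical axis, the 135 above it lie mostly left of 0, and MMP1 and CYP1A1 lie near the line at the upper right.

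The genes below the sum were led by genes of cell division. Of 39 measured genes of G2/M and mitosis 23 were called below additive and 0 above, against 1.84% of all genes below, with a list median of -0.82 against -0.03 over all genes and 38 of 39 values negative. Of 40 measured genes of DNA replication and G1/S 20 were called below and 0 above (median -0.46), and of 38 DNA repair genes 9 and 0 (median -0.23). The median smoke extract change of the mitosis list was -1.06 in irradiated cells and -0.23 in unirradiated cells, and the median radiation change was -1.34 with smoke extract and -0.60 without. For the replication list the medians were -0.66 and -0.12 for smoke extract, and -1.13 and -0.71 for radiation. In bulk RNA, fewer cells in a cycle stage and less RNA per cell cannot be told apart.

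Promoters of the 4 protein-coding genes with the largest negative interaction and a promoter entry are shown, to set the sequence beside genes that moved together. They are RefSeq sequences on GRCh38.p14, plus strand, from 250 bases before to 50 after the gene start, at chr5:138178862-138179161 for KIF20A, chr17:40287629-40287928 for CDC6, chr10:13161308-13161607 for MCM10 and chr4:17810729-17811028 for NCAPG. Capitals mark matches on either strand to the CCAAT box (CCAAT), to the core of the cell cycle homology region (TTTGAA) and to an E2F core (GCGGGAA).
KIF20A: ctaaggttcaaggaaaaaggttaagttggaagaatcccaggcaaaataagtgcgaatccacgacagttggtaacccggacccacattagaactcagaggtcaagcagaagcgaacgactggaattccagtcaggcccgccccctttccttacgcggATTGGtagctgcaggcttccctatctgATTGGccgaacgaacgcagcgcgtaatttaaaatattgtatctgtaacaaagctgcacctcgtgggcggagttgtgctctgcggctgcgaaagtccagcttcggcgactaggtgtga
CDC6: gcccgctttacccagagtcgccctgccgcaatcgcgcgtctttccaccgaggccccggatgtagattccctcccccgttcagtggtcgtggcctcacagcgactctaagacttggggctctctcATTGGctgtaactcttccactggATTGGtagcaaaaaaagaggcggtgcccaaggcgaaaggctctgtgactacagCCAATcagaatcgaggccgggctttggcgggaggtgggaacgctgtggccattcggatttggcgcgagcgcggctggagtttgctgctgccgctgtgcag
MCM10: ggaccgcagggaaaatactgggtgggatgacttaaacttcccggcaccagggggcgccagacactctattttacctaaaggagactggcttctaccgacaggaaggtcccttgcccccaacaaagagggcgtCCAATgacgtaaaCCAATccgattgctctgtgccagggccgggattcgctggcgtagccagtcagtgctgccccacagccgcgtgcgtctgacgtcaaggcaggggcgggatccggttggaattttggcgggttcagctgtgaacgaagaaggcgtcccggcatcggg
NCAPG: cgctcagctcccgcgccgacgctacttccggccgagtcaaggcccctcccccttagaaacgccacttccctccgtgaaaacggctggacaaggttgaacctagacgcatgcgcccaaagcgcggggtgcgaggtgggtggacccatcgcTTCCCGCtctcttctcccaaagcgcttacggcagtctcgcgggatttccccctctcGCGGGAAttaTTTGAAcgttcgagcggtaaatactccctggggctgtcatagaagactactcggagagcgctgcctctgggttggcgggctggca

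Matches to the CCAAT box numbered 2 in KIF20A, 3 in CDC6, 2 in MCM10 and 0 in NCAPG, and the NCAPG window held 1 match to the cell cycle core and 2 to the E2F core. A promoter was found for 289 of the 339 genes below the sum, 93 of the 135 above it and 14239 of all genes tested. The cell cycle core occurred in 21.5% of promoters below, 10.8% above and 11.9% of all. The CCAAT box occurred in 46.7%, 43.0% and 36.3%, both of these motifs in 13.5%, 7.53% and 4.86%, and the E2F core in 15.6%, 10.8% and 8.95%. These are matches of letters in a window, given as a description.

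Among mitosis genes the interaction was largest for KIF20A, a kinesin needed for cytokinesis. It had 7.48, 7.26 and 7.71 on the arrays of radiation plus smoke extract, against 9.18, 9.18 and 9.16 with radiation, 9.72, 9.66 and 9.67 with smoke extract and 10.03, 9.88 and 9.86 in untreated cells. The arrays of the combination lay below all others, and those of radiation lay below those of smoke extract and of untreated cells. The sum of both single changes predicted a level of 8.93, a change of -0.99 against untreated cells, whereas the observed change was -2.44, and the interaction was -1.45 ± 0.12 (SE, 95% interval -1.69 to -1.21, adjusted p = 1.57e-11 by limma).

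Other genes of the list also had their lowest levels in the combination. TOP2A, the topoisomerase that separates replicated chromosomes, had 9.01, 9.04 and 9.07 with both agents, 10.20, 10.08 and 10.11 with radiation, 10.41, 10.44 and 10.47 with smoke extract and 10.52, 10.34 and 10.36 in untreated cells. Smoke extract and untreated arrays overlapped, radiation arrays lay slightly below them, and the arrays of the combination were lowest without overlap. The interaction was -1.13 ± 0.10 (adjusted p = 2.79e-11), while smoke extract alone changed TOP2A by 0.03. BUB1, a kinase of the spindle checkpoint, had 7.67, 7.57 and 7.82 with both agents, 8.94, 8.71 and 8.84 with radiation, 9.51, 9.51 and 9.50 with smoke extract and 9.53, 9.50 and 9.46 in untreated cells. The combination was again below all other arrays, and the smoke extract change was -1.14 in irradiated cells and 0.01 in unirradiated cells. TTK, another spindle checkpoint kinase, had an interaction of -1.20 ± 0.23, TPX2, a spindle assembly factor that activates Aurora A, an interaction of -1.10 ± 0.10, and ASPM, a spindle pole protein, an interaction of -1.09 ± 0.13. TPX2 had 8.50, 8.47 and 8.38 with both agents, 9.75, 9.58 and 9.56 with radiation, 9.72, 9.64 and 9.76 with smoke extract and 9.82, 9.72 and 9.82 in untreated cells. Radiation arrays overlapped the range of smoke extract arrays, and the combination lay more than 1 log2 unit lower. Outside the list, FOXM1, a transcription factor of mitosis genes, had an interaction of -1.10 ± 0.16, and NCAPG, a condensin subunit, of -1.15 ± 0.11. TACC3 (-1.10), which stabilizes spindle fibres, SGO1 (-1.08), which protects centromeric cohesion, and ESCO2 (-1.06), which establishes cohesion, were called too. The genes from KIF20A to ESCO2 above were called under every alternative run. On leaving out each array in turn, 21 to 27 mitosis and 14 to 21 replication genes were called below the sum.

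Not every mitosis gene took part. Chosen after their values were seen, AURKA (-0.10, adjusted p = 0.847), MAD2L1 (-0.07, adjusted p = 0.956) and KIF23 (-0.07, adjusted p = 0.912) lay near 0, PTTG1 was the positive value of the list (0.10, adjusted p = 0.826), and CDK1 (-0.63, adjusted p = 0.177) missed the threshold.

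**Figure D2:**
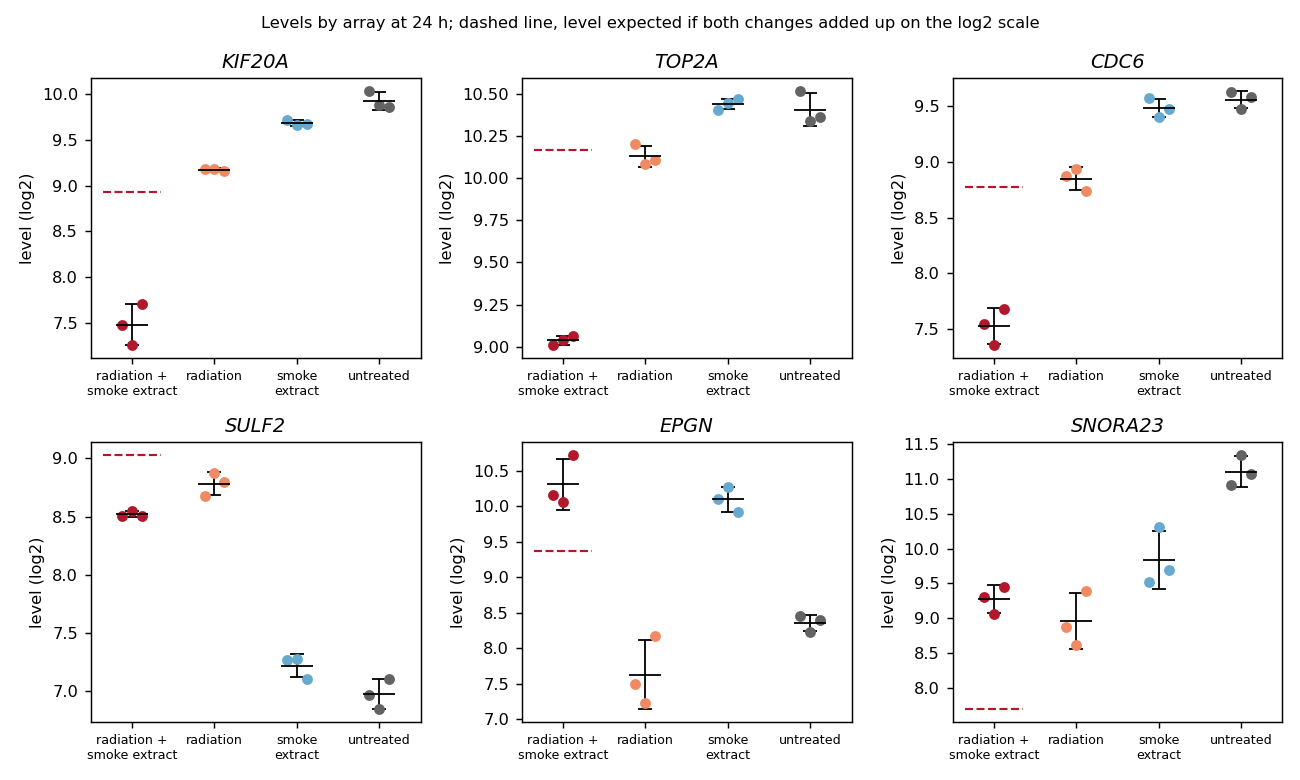
Levels (log2) of 6 genes are shown on the 3 arrays of each of 4 groups at 24 h, with bars for mean and SD and a dashed line for the level at which the changes of both agents would add up. KIF20A, TOP2A and CDC6 lie 1.13 to 1.45 log2 units below the line with both agents, SULF2 lies 0.51 below it, and EPGN and SNORA23 lie 0.94 and 1.57 above it.

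CDC6, which loads the replicative helicase at origins, led the replication list with 7.54, 7.36 and 7.68 with both agents, 8.87, 8.94 and 8.73 with radiation, 9.57, 9.40 and 9.47 with smoke extract and 9.62, 9.48 and 9.58 in untreated cells. The combination lay below every other array and radiation below smoke extract and untreated arrays. The interaction was -1.24 ± 0.14 (adjusted p = 2.43e-08 by limma), with smoke extract changes of -1.32 in irradiated cells and -0.08 in unirradiated cells. MCM10, an initiation factor, had 6.48, 6.74 and 6.60 with both agents, 7.84, 7.74 and 7.59 with radiation, 8.58, 8.59 and 8.67 with smoke extract and 8.56, 8.51 and 8.63 in untreated cells. Its interaction was -1.16 ± 0.14, and its groups were ordered as for CDC6. POLA2, a subunit of the primase complex, and MCM5, a helicase subunit, each had an interaction of -0.75 ± 0.13. The helicase genes MCM2 (-0.43), MCM3 (-0.55), MCM4 (-0.74), MCM6 (-0.68) and MCM7 (-0.56) and the S-phase regulator E2F1 (-0.63), chosen after their values were seen, were called too. The cyclin E gene CCNE2, which radiation changed by -2.16 with smoke extract and -1.91 without, had 5.60, 5.04 and 5.52 with both agents, 6.10, 5.76 and 6.44 with radiation, 7.75, 7.78 and 7.13 with smoke extract and 8.16, 7.98 and 7.89 in untreated cells. Irradiated arrays were lowest, and those of the combination lay under the 95th percentile of the olfactory genes. The interaction of -0.25 ± 0.26 missed the threshold (adjusted p = 0.736). PCNA, chosen after its value was seen, had -0.10. With only the 12 arrays or only the 27 arrays at 24 h in the fit, 10 replication genes were called below the sum.

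In the repair list, BLM, a helicase of homologous recombination, had 6.41, 6.35 and 6.73 with both agents, 7.55, 7.32 and 7.51 with radiation, 8.22, 8.30 and 8.45 with smoke extract and 8.34, 8.19 and 8.35 in untreated cells. The combination was lowest without overlap, and the interaction was -0.99 ± 0.14 (adjusted p = 7.69e-06). FANCI (-0.92 ± 0.12), FANCB (-0.76 ± 0.19) and BRIP1 (-0.75 ± 0.17) belong to the Fanconi anemia pathway of crosslink repair, and FANCB lay under the 95th percentile of the olfactory genes on all arrays of the combination. The FANCB call ended on leaving out any of untreated replicates 2 and 3, smoke extract replicate 3, radiation replicate 1 or replicate 2 of the combination (adjusted p = 0.0535 to 0.0661). CLSPN, an adaptor of the replication checkpoint, had 5.37, 5.50 and 5.41 with both agents, 6.78, 6.12 and 6.13 with radiation, 7.97, 7.96 and 7.87 with smoke extract and 7.70, 7.68 and 7.78 in untreated cells. Levels of the combination lay under the 95th percentile of the olfactory genes. The interaction of -1.13 ± 0.27 rested on radiation replicate 1, without which the adjusted p was 0.0909, and another cluster of the gene gave -0.52. LMNB1, a nuclear lamina gene, and HMGB2, a chromatin protein, which were listed for their late fall on these arrays, had interactions of -0.66 ± 0.11 and -0.88 ± 0.20, HMGB2 losing its call with only the 12 arrays in the fit (adjusted p = 0.127).

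The single effects in the genes below the sum were mixed. The median of smoke extract was -0.45 in irradiated and 0.08 in unirradiated cells, and the median of radiation was -0.43 with and 0.03 without smoke extract. Both single changes were negative in 104 of the 339 genes (30.7%, against 29.3% of all genes) and positive in 151 (44.5%, against 38.0%), shares near those of all genes. Taken from arrays outside the interaction, namely smoke extract after cisplatin and radiation after nicotine, both were negative in 169 genes (49.9%, against 20.3% of all genes) and positive in 58 (17.1%, against 34.6%). On those outside arrays the median changes of the genes below the sum were -0.20 and -0.06. The olfactory receptor genes had medians of 0.24 and 0.05 there, so the signs may be shifted by background. The combination was the lowest of the 4 groups in 213 genes, and its 3 arrays lay below the other 9 in 179, against 668 of all genes (3.63%). These arrays also made the calls, so the counts are a description.

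Some genes below the sum had positive changes with single agents that did not add up. SULF2, a sulfatase that edits heparan sulfate and was listed for its late rise after radiation on these arrays, had 8.51, 8.55 and 8.50 with both agents, 8.68, 8.87 and 8.80 with radiation, 7.27, 7.28 and 7.10 with smoke extract and 6.96, 6.85 and 7.10 in untreated cells. Irradiated arrays were well above the others, and the combination lay just below radiation alone. Smoke extract changed SULF2 by -0.27 in irradiated and 0.24 in unirradiated cells. The interaction was -0.51 ± 0.10 (adjusted p = 0.00249 by limma), and with only the 12 or only the 27 arrays in the fit the adjusted p was 0.0787 and 0.0724. TIMP2, an inhibitor of matrix metalloproteinases and the called member among 22 genes of matrix proteases and inhibitors, had an interaction of -0.63 ± 0.16, with radiation changes of -0.07 with smoke extract and 0.56 without it. LIF-AS2, an antisense RNA at the LIF locus, had 8.91, 8.98 and 8.08 with both agents, 8.62, 8.50 and 7.59 with radiation, 8.83, 9.09 and 8.82 with smoke extract and 6.67, 7.08 and 7.08 in untreated cells. All treated arrays were above the untreated ones, those of the combination overlapped each single agent, and the interaction was -1.54 ± 0.41. That call ended without any of untreated replicate 1, smoke extract replicates 2 and 3, radiation replicates 1 and 2 and replicate 3 of the combination (adjusted p = 0.0521 to 0.121). TIMP2 was lost without any of untreated or radiation replicates 1 and 2 or replicate 3 of the combination (0.0569 to 0.122).

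Stress and survival genes below the sum were few. PDIA4, a folding enzyme of the endoplasmic reticulum, had -0.40 ± 0.09 and was the called member among 29 genes of the ATF4 and unfolded protein response list. Among 18 amino acid transporter genes SLC1A4 and SLC7A1 had -0.43 and -0.37, and among 15 genes of the BCL2 family BCL2L1, which encodes a survival protein, had -0.44. MAFG, a partner of NRF2, had -0.56, but other clusters of the gene gave -0.34 and 0.36. Calls of the last 4 genes ended without single arrays, SLC1A4 without untreated replicate 1 or replicate 2 of the combination (adjusted p = 0.0689 and 0.0708), SLC7A1 without any array but radiation replicate 3 and replicate 3 of the combination (0.0512 to 0.168), BCL2L1 without any but untreated replicate 3, smoke extract replicate 2, radiation replicate 3 and replicate 1 of the combination (0.0635 to 0.198), and MAFG without untreated 1, smoke extract 1 or 3, radiation 1 or 2 or combination 3 (0.0863 to 0.153).

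Genes above the sum were mostly genes with negative changes for each agent alone and no further change with both. Both single changes were negative in 127 of the 135 genes (94.1%) against 29.3% of all genes, and in 100 (74.1%) when taken from arrays outside the interaction, against 20.3% of all genes. The median of smoke extract was 0.14 in irradiated and -0.57 in unirradiated cells, and that of radiation was 0.05 with and -0.63 without smoke extract. On the outside arrays the medians were smaller, -0.17 for smoke extract after cisplatin and -0.29 for radiation after nicotine. Untreated cells were the highest of the 4 groups in 125 genes, with all 3 untreated arrays above the other 9 in 98, against 1114 of all genes (6.05%). The untreated arrays enter the interaction itself, so these counts are again a description.

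Of 192 RNAs of the nucleolus and Cajal bodies 17 were called above the sum and 0 below, against 0.733% of all genes above, with a median of 0.17. All 17 were among the 91 whose mean lay above the median gene, where the median was 0.36. These RNAs guide the chemical modification of ribosomal and spliceosomal RNA. SNORA23 had 9.31, 9.07 and 9.46 with both agents, 8.87, 8.62 and 9.40 with radiation, 9.52, 10.31 and 9.69 with smoke extract and 10.90, 11.34 and 11.06 in untreated cells. Untreated arrays were highest, the other groups overlapped in part, and the combination stood at the level of radiation alone. The interaction was 1.57 ± 0.34 (adjusted p = 0.00465 by limma). SNORA3A had 10.45, 10.18 and 10.26 with both agents, 9.97, 9.56 and 10.26 with radiation, 10.39, 11.45 and 10.83 with smoke extract and 11.79, 12.04 and 12.02 in untreated cells. Its interaction was 1.43 ± 0.31, and SNORA20 (1.92 ± 0.45, with 5 of 12 arrays under the 95th percentile of the olfactory genes), SCARNA10 (1.45 ± 0.38), SCARNA6 (1.33 ± 0.33) and SNORA22 (1.19 ± 0.31) were called as well. NOP10, a core protein of the same particles, had 8.81, 8.90 and 9.13 with both agents, 8.80, 8.70 and 8.95 with radiation, 9.44, 9.54 and 8.83 with smoke extract and 10.16, 10.16 and 10.20 in untreated cells. Untreated arrays again stood above all others, and the interaction was 1.04 ± 0.21 (adjusted p = 0.00175). The mean of the 91 RNAs was 8.63, 8.33 and 8.65 with both agents, 8.39, 8.31 and 8.49 with radiation, 8.75, 8.97 and 8.68 with smoke extract and 9.12, 9.07 and 9.05 in untreated cells.

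VTRNA1-1, a vault RNA, had the largest interaction, with 3.66, 4.02 and 4.00 with both agents, 2.91, 2.88 and 4.15 with radiation, 3.93, 4.71 and 3.53 with smoke extract and 5.71, 6.33 and 6.00 in untreated cells. Untreated arrays were highest, but all arrays except untreated replicate 2 lay under the 95th percentile of the silent olfactory genes, so the value of 2.53 ± 0.56 compares levels that cannot be separated from background. The replication-dependent histone gene H2AC25 had 6.26, 6.50 and 6.43 with both agents, 6.38, 6.26 and 6.15 with radiation, 5.76, 5.93 and 6.01 with smoke extract and 7.47, 7.30 and 7.35 in untreated cells. Smoke extract arrays were lowest and untreated arrays highest, with an interaction of 1.61 ± 0.27 (adjusted p = 0.000126). The 3 smoke extract arrays lay under that percentile, so the size of the value is uncertain. Of 28 clustered histone genes H2BC8 (1.08), H1-2 (0.88) and H2BC5 (0.85) were called above and 0 below (list median 0.54), and H2BC13 had 1.47, with all arrays of radiation and of the combination under the percentile. Near-identical histone, U RNA and small nucleolar RNA copies can share probes, so single members are uncertain, as for RNU5B-1 (2.83-fold above the sum) and RNVU1-15 (2.51-fold), components of the spliceosome.

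Genes of ribosomal and mitochondrial proteins were among those above the sum. Against 0.733% of all genes above, of 66 cytosolic ribosomal protein genes 5 were called above and 0 below (median 0.26), of 73 mitochondrial ones 3 and 0 (0.15), and of 29 oxidative phosphorylation genes 1 and 0 (0.20). The mean of the 66 genes was 10.32, 10.21 and 10.47 with both agents, 10.19, 10.15 and 10.43 with radiation, 10.33, 10.46 and 10.15 with smoke extract and 10.57, 10.47 and 10.49 in untreated cells. In each treated group the array with the highest of these means had the lowest olfactory receptor mean. With the olfactory receptor mean as a covariate all 135 calls above the sum held, and the count above rose to 397. The covariate is 1 mean per array, and whether background contributed to these calls was not tested. Examples were RPS13 (0.91), RPS25 (0.87) and MRPS23 (0.92), chosen after their values were seen, and ATP5PB (0.56), a subunit of ATP synthase. Of 11 metallothionein and zinc export genes MT1G (0.76 ± 0.19) and MT1B (0.57 ± 0.15), which bind zinc and copper, were called (median 0.41), and these too have close copies. GGCT, an enzyme of glutathione breakdown, had 7.38, 7.40 and 8.01 with both agents, 7.33, 7.14 and 8.16 with radiation, 7.64, 8.03 and 7.28 with smoke extract and 8.67, 8.78 and 9.01 in untreated cells. Its arrays overlapped among the 3 treated groups, and the interaction was 1.23 ± 0.26. SEC61B, of the protein translocon, and the pseudogene ATP5F1EP2 each had 1.17, and DEFB1, a defensin listed for its late fall on these arrays, 1.22. Leaving out single arrays ended many of these calls. VTRNA1-1, H2AC25, SNORA23, SNORA3A, NOP10 and GGCT kept theirs, although with only the 27 arrays at 24 h in the fit the adjusted p was 0.0771 for SNORA3A and 0.083 for GGCT, and with only the 12 it was 0.117 for GGCT. SNORA20 lost its call without smoke extract 1, radiation 2 or combination 3 (adjusted p = 0.0502 to 0.0866), and SCARNA6 without untreated 2, smoke extract 1, radiation 1 or 2 or combination 3 (0.0627 to 0.102). SCARNA10, SNORA22, SEC61B, ATP5F1EP2, DEFB1, RNVU1-15 and ATP5PB lost theirs without 7 to 9 of the 12 arrays (0.05 to 0.198), and RNU5B-1, H2BC13, H2BC8, H1-2, H2BC5, MT1G and MT1B without 4 to 6 (0.0546 to 0.181). Radiation 3 was not among the arrays whose removal ended any of these calls.

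Few genes induced by smoke extract went beyond the sum. EPGN, a ligand of the EGF receptor, had 10.16, 10.05 and 10.72 with both agents, 7.49, 7.22 and 8.17 with radiation, 10.11, 10.27 and 9.92 with smoke extract and 8.45, 8.23 and 8.39 in untreated cells. Arrays with smoke extract lay above those without it, and radiation arrays lay below untreated ones. Smoke extract changed EPGN by 2.69 in irradiated and 1.74 in unirradiated cells, an interaction of 0.94 ± 0.26 (adjusted p = 0.0374 by limma) and the call among 22 genes of the EGF family and ERK feedback list. IL1B, an inflammatory cytokine, had 7.19, 7.26 and 8.11 with both agents, 5.44, 5.57 and 5.72 with radiation, 6.77, 6.69 and 6.52 with smoke extract and 5.25, 5.38 and 5.57 in untreated cells. The combination was highest without overlap, although without smoke extract the level was below the 95th percentile of olfactory genes. Its interaction was 0.69 ± 0.20 (adjusted p = 0.045), the call among 27 genes of the NF-kB, interleukin and chemokine list. SLC2A1, which encodes a glucose transporter and was the call among 29 genes of hypoxia and glycolysis, had 0.30 ± 0.08, with smoke extract changes of 0.67 and 0.37. EPGN was lost without any array but smoke extract 2, radiation 3 and combination 1 and 2 (adjusted p = 0.0541 to 0.198), IL1B without any but untreated 1, radiation 3 and combination 1 and 2 (0.0522 to 0.203), and SLC2A1 without untreated 3, smoke extract 1, radiation 1 or combination 3 (0.0603 to 0.0701). SLC2A1 was also lost after quantile normalization (0.15, adjusted p = 0.316), with only the 12 or the 27 arrays (0.128 each) and without the trend (0.0592).

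The strongest smoke extract targets missed the threshold in the fit of all arrays. CYP1A1 had 9.77, 9.64 and 9.82 with both agents, 5.33, 5.20 and 5.35 with radiation, 9.34, 9.23 and 9.11 with smoke extract and 5.26, 5.37 and 5.31 in untreated cells. Arrays with smoke extract were far above those without, and the combination lay above smoke extract alone in all arrays. Levels without smoke extract lay under the 95th percentile of the olfactory genes, so the changes are at best lower bounds. The smoke extract change was 4.45 in irradiated and 3.91 in unirradiated cells, and the interaction was 0.54 ± 0.19 (95% interval 0.15 to 0.93, adjusted p = 0.115). The collagenase gene MMP1 had changes of 4.63 and 4.10 (interaction 0.52 ± 0.18, adjusted p = 0.0996), the cytokine gene IL1A 3.05 and 2.65 (0.40 ± 0.22, adjusted p = 0.38), and TIPARP, an AHR target that restrains the receptor, 2.53 and 2.60 (-0.06 ± 0.13, adjusted p = 0.9). After quantile normalization CYP1A1 (0.67, adjusted p = 0.0124) and MMP1 (0.63, adjusted p = 0.0345) were called above the sum, and MMP1 also with the olfactory covariate (adjusted p = 0.0366). Of 10 AHR targets 0 were called either way by limma, with 4 at an unadjusted p under 0.05, a median interaction of -0.04 and median smoke extract changes of 0.51 in irradiated and 0.62 in unirradiated cells. Of 28 NRF2 targets 0 were called above and 1 below, which was MAFG.

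The p53 targets were also not called. CDKN1A, which encodes p21, had 9.16, 9.35 and 9.90 with both agents, 8.93, 8.97 and 9.84 with radiation, 8.66, 8.42 and 8.60 with smoke extract and 8.35, 8.48 and 8.61 in untreated cells. Irradiated arrays were above unirradiated ones, replicate 3 of both irradiated groups was the highest, and smoke extract arrays overlapped their counterparts in part. The interaction was 0.14 ± 0.22 (95% interval -0.30 to 0.59, adjusted p = 0.853). MDM2, whose product degrades p53, had 10.88, 10.73 and 11.15 with both agents, 10.87, 10.80 and 11.15 with radiation, 9.60, 9.72 and 9.58 with smoke extract and 10.19, 9.97 and 9.98 in untreated cells. Irradiated arrays lay above unirradiated ones. Smoke extract changed MDM2 by -0.02 in irradiated and -0.41 in unirradiated cells, an interaction of 0.39 ± 0.15 (adjusted p = 0.156), which was called without radiation replicate 3 (0.50, adjusted p = 0.0363). Of 41 p53 targets 0 were called above or below by limma, with 12 at an unadjusted p under 0.05, a median interaction of -0.06 and median radiation changes of 0.57 with smoke extract and 0.68 without. A p that misses the threshold does not show that the effects were additive.

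No member was called among 25 immediate early, 27 interferon, 18 cholesterol synthesis and 19 heat shock genes, or among 14 Wnt, 20 contractile, 18 retinoid and 15 nicotinic receptor genes, with list medians between -0.10 and 0.03. At an unadjusted p under 0.05 the limma fit had 4, 2, 6 and 4 of the genes in the first set of lists and 0, 4, 0 and 1 in the second. Of 173 miRNA genes 0 were called, with 10 at an unadjusted p under 0.05 (median -0.06).

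**Figure D3:**
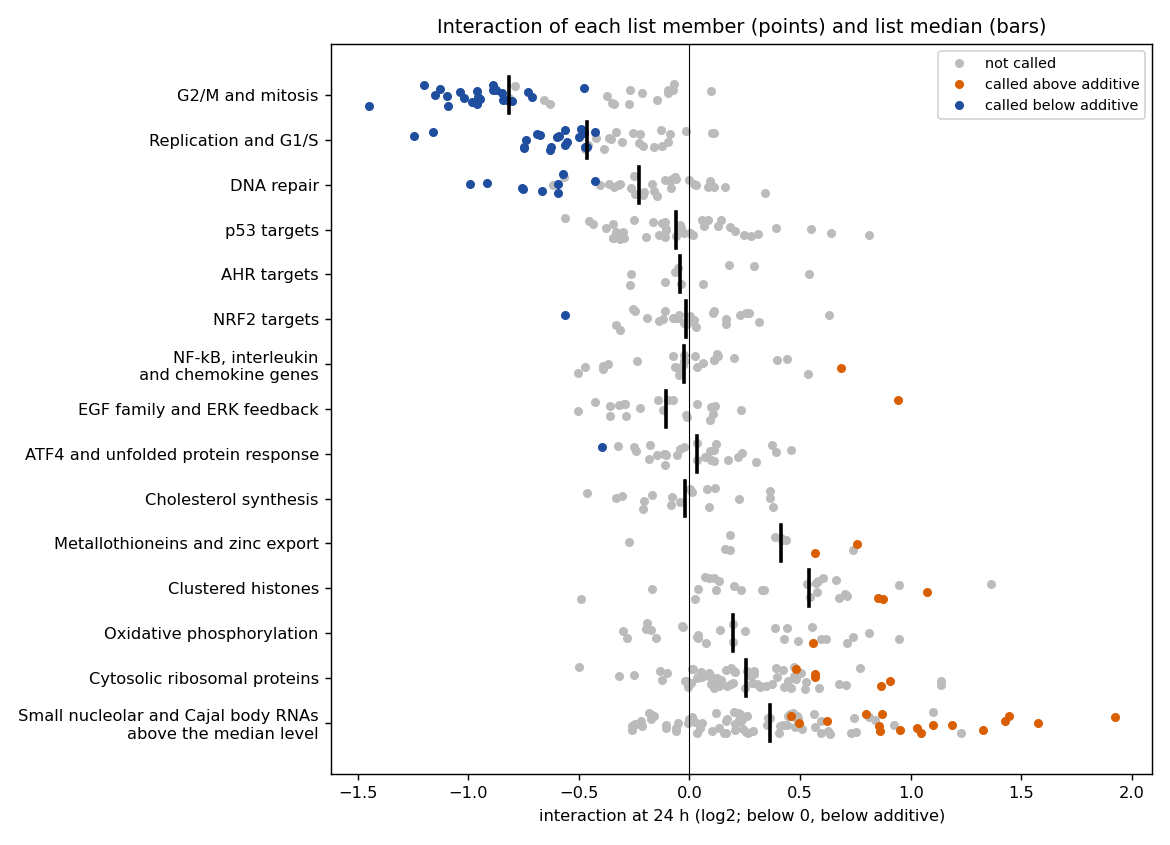
The interaction (log2) of each measured member of 15 gene lists is plotted as a point, coloured by its call, with a bar at the list median. The medians of the mitosis (-0.82) and replication (-0.46) lists lie left of 0, those of histones (0.54), metallothioneins (0.41) and the 91 small nucleolar RNAs above the median level (0.36) lie right of it, and those of p53, AHR and NRF2 targets lie at -0.06 to -0.02.

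The interaction was also set against other settings of the study that share some of its arrays. At 2 h, the same comparison on 12 other arrays called 0 of 18417 genes with limma (0.0%), with 301 at an unadjusted p under 0.05 (1.63%). At 24 h that share was 16.8%. Each SE pools 1 spread per gene over the arrays of both times. If the spread differs between times, the counts at 2 h and 24 h are not a like comparison, and this was not tested. The difference between 24 h and 2 h was called for 105 genes (0.57%), 6 above 0 (0.0326%) and 99 below (0.538%), among them 14 mitosis and 6 replication genes, whose lists had medians of 0.02 and 0.00 at 2 h. KIF20A differed by -1.60 (adjusted p = 4.89e-08), TROAP, a spindle protein, by -1.39, CDC6 by -1.31 and KIF18B, a kinesin, by -1.30, although another KIF18B cluster had a 24 h interaction of -0.20. WEE1, the kinase that restrains mitotic entry, differed by -1.31, with interactions of -0.70 at 24 h (adjusted p = 0.0857) and 0.60 at 2 h (adjusted p = 1), neither of them called. In 3 alternative fits the 24 h interaction of WEE1 was called (lowest adjusted p = 0.0228 by limma). Other WEE1 clusters had 24 h interactions of -0.63, called in the fit of all rows (adjusted p = 0.000293), and -0.11 (0.938). Above 0 were MT1P3 (1.09), MT1HL1 (0.97), NPM3 (0.91), COX7A2L (0.82) and HPCAL1 (0.71). The count was 66 without smoke extract 2 h replicate 2 and 323 without radiation 24 h replicate 3.

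With cisplatin in place of no therapy as the base, the smoke extract effect after radiation differed for 70 genes (0.38%), 7 above 0 (0.038%) and 63 below (0.342%), among them 11 mitosis and 7 replication genes. The 360 olfactory receptor genes had a median of -0.25 in this comparison, against -0.06 over all genes. Their mean levels were 4.84, 4.72 and 4.86 with cisplatin plus smoke extract and 4.57, 4.69 and 4.44 with cisplatin. Whether background contributed to the balance of calls was not tested. KIF20A differed by -1.16 (adjusted p = 2.41e-08), TROAP by -1.08, CDC6 by -1.06 and TPX2 by -0.94. The mitosis list mean was 7.50, 7.39 and 7.69 with radiation plus smoke extract, against 8.61, 8.82 and 8.75 with cisplatin plus smoke extract. It was 8.47, 8.36 and 8.61 with radiation and 9.24, 9.11 and 9.35 with cisplatin alone. Median smoke extract changes of that list were -1.06 after radiation and -0.47 after cisplatin. Above 0 were TANGO2 (0.69), RAB27B (0.65) and AQP3 (0.64), which were called for the interaction itself but lost that call without 9, 6 and 8 of the 12 arrays (adjusted p = 0.0504 to 0.215) and with only the 12 or the 27 arrays in the fit (0.128 to 0.227). ZNF814, TNIP3 and TUBA3E also passed the test, but lay under the 95th percentile of the olfactory genes on 21, 54 and 46 of the 54 arrays, so the size of their differences cannot be read. For the small nucleolar RNAs the median difference was 0.01, and for SNORA23 it was -0.01. Without cisplatin replicates 1, 2 and 3 the count was 46, 889 and 47, without radiation replicates 1 and 3 it was 44 and 567, and it was 192 without replicate 2 of the combination.

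With nicotine arrays as the base, the difference was called for 199 genes (1.08%), 11 above 0 (0.0597%) and 188 below (1.02%). It was called below 0 for 24 of 39 mitosis and 16 of 40 replication genes, with medians of -0.72 and -0.51. CLSPN (-1.39), KIF20A (-1.26), BLM (-1.21), TROAP (-1.20) and CDC6 (-1.18) were lowest, and H2AC25 (1.49), H2BC21 (0.86), MT1HL1 (0.68) and PTTG1IP (0.62) were high. For H2AC25 all arrays of smoke extract and of radiation plus nicotine, and for CLSPN those of the combination, lay under the olfactory percentile. GSTA1 passed the test too, but lay under it on all 54 arrays. For SNORA23 the value was 0.32 (adjusted p = 0.768). This comparison and the interaction share the arrays of the combination and of smoke extract. The count was 97 and 1335 without nicotine replicates 2 and 3, 122 without replicate 2 of the combination, and 358 without replicate 1 of radiation plus nicotine. Nicotine by radiation on its own, in place of smoke extract, called 0 genes with limma (0.0%), with 798 at an unadjusted p under 0.05 (4.33%). That comparison shares the radiation and untreated arrays of the interaction. Its values, uncalled, were 1.26 for SNORA23, 1.21 for SNORA3A, 0.12 for H2AC25 and -0.19 for KIF20A. Smoke extract by cisplatin shares the smoke extract and untreated arrays of the interaction. It gave 1.59 for SNORA23 (adjusted p = 0.0437 by limma), 1.58 for SNORA3A (0.037), 1.81 for H2AC25 (0.000241) and -0.29 for KIF20A (0.16). On the shared arrays smoke extract alone changed SNORA23 by -1.26, SNORA3A by -1.06 and H2AC25 by -1.48. After cisplatin it changed them by 0.33, 0.52 and 0.34. The shared arrays carry much of these positive values, so a shared sign is no separate result.

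**Figure D4:**
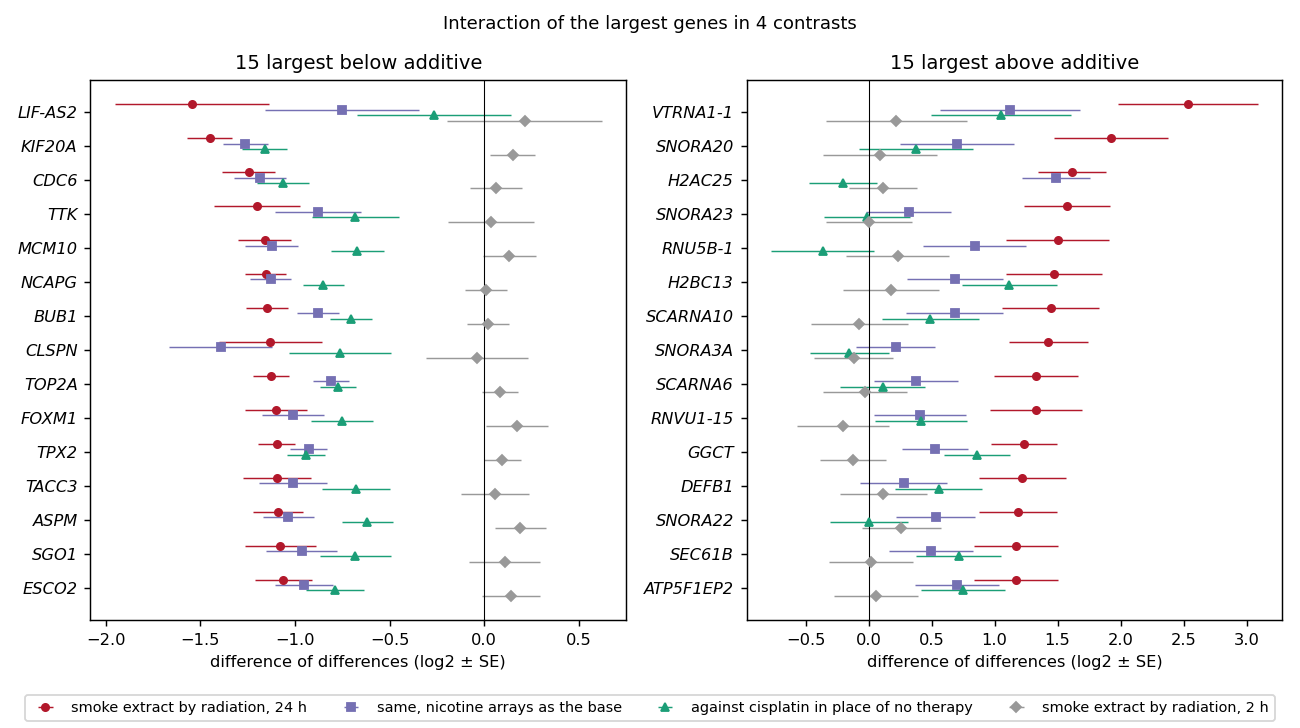
Differences of differences (log2, bars show SE) are plotted for the 15 largest genes on each side in 4 comparisons. The genes were chosen by the interaction, and the nicotine and cisplatin comparisons reuse some of its arrays, so a shared sign is no separate result. Genes below the sum lie near 0 at 2 h, and SNORA23 lies near 0 with cisplatin as the base.

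**Figure D5:**
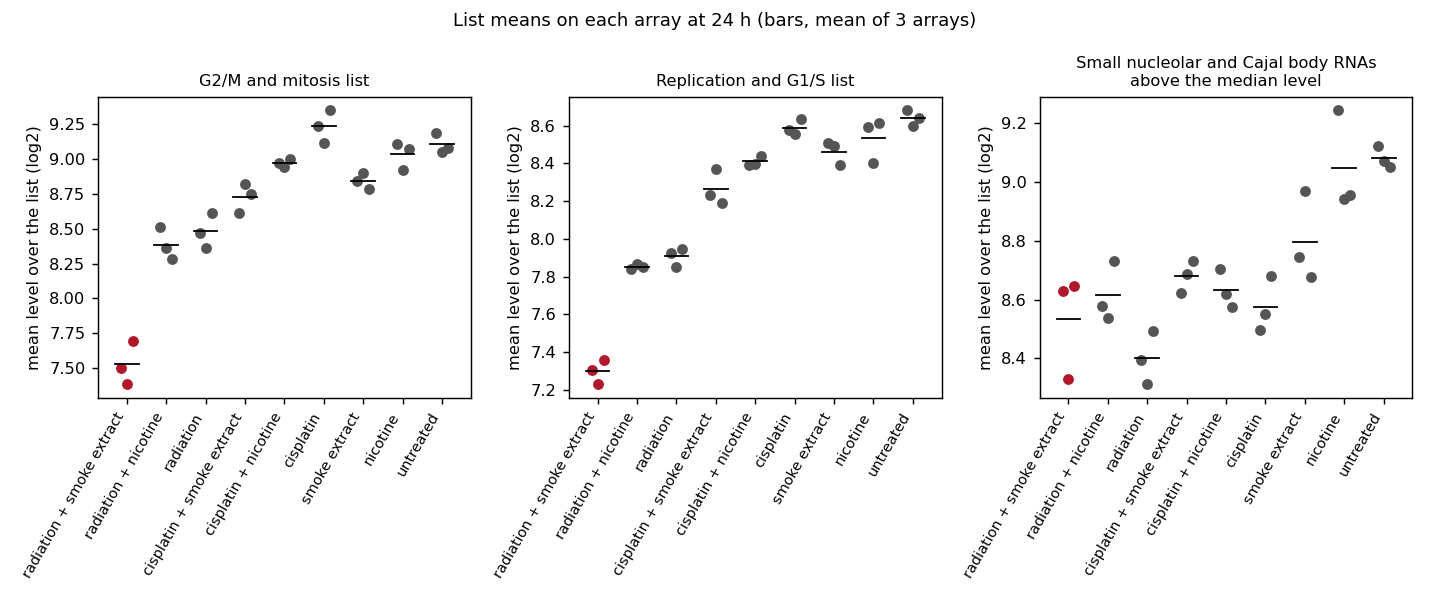
Mean levels (log2) of the mitosis list, the replication list and the 91 small nucleolar RNAs are plotted for each array of the 9 groups at 24 h, with bars at group means. Radiation plus smoke extract is lowest for mitosis (7.39 to 7.69) and replication (7.23 to 7.36), while untreated cells are highest for small nucleolar RNAs by group mean.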

How the data were processed

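Expression was measured on 54 oligonucleotide arrays, and the values are log2 levels as the authors deposited them. No source states the base 2, which is taken from the range of values (0.892 to 13.8). The tool was Affymetrix Power Tools 1.15.0, per the submitters' processing notes, while summarization, background correction and normalization are not given in the sources used here. Of 33297 transcript clusters 19460 had 1 gene symbol in the platform annotation, 1754 several and 12083 none. The cluster with the highest mean stood for each of 18417 genes, 769 of which had more than 1 cluster. The gene reference held the Entrez identifiers of 19429 clusters, 0 symbols needed an update, and 0 sample columns were left unused.

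One limma 3.58.1 model (R 4.3.3, with version 1.17.8 of data.table) took in all 54 arrays as 18 group means, with 36 residual degrees of freedom and an intensity trend in eBayes. P-values are two-sided, adjusted by the Benjamini-Hochberg method over 18417 genes, and genes were called under 0.05. The 4 tested comparisons were the interaction at 24 h, its difference from 2 h, and the same effect against cisplatin and against nicotine. Errors of changes are SE of the fit, and the number of arrays limits the precision, with a median SE of 0.158 for the interaction. Each SE pools 1 spread per gene over all 54 arrays, so it does not measure the spread of the compared groups alone. The SD with radiation and in untreated cells was 0.62 and 0.02 for DEFB1, 0.54 and 0.17 for GGCT, and 0.01 and 0.09 for KIF20A. Where the compared groups spread more than the other arrays, the SE and adjusted p are too small, and where they spread less, both are too large. How many genes this concerns was not tested. Figures were drawn with matplotlib 3.10.9 in Python 3.11.15. The fit was run on simulated data with independent normal noise and 1 SD per gene in all groups. That setting holds no unequal spreads between groups and no deviations shared between arrays, so it did not test them.

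Genes and the 30 lists (701 memberships, of which 636 were measured and the others not analysed here) were chosen with earlier results of these data known. Named genes were the 15 called genes with the largest interaction on each side, up to 4 called members per list, the 5 largest called on each side in the other comparisons, and 8 genes always given. Alternatives were other sets of arrays in the fit, a replicate block, quantile normalization, eBayes without trend, all rows, the mean of a gene's rows, genes above the median level, the olfactory receptor mean as a covariate, each array left out, unlogged values and a 1.5-fold minimum. Deviations of arrays with the same replicate number from their group means correlated between -0.437 and 0.674 over 18 pairs of arrays, with a median of -0.04. Over 36 pairs with different numbers they correlated between -0.541 and 0.409, with a median of 0.02. By these medians the numbers were not taken to pair samples, although the highest correlation was between arrays of the same number.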

Additional observations from a re-analysis of the deposited data

Results flagged for a closer look

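Each of the 4 comparisons tests a difference between effects measured in different settings, and each called genes by its own limma test. Smoke extract acted differently with and without radiation at 24 h for 474 genes, and this interaction differed from that at 2 h for 105 genes. The smoke extract effect after radiation differed from that after cisplatin for 70 genes. With nicotine as the base, the difference by radiation was called for 199 genes.

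Between 24 h and 2 h the interaction differed most, on the log2 scale, for MT1P3 (1.09), MT1HL1 (0.97), NPM3 (0.91), COX7A2L (0.82) and HPCAL1 (0.71) above 0, and for KIF20A (-1.60), TROAP (-1.39), CDC6 (-1.31), WEE1 (-1.31) and KIF18B (-1.30) below it. Between radiation and cisplatin the smoke extract effect differed most for ZNF814 (1.70), TNIP3 (0.90), TANGO2 (0.69), RAB27B (0.65) and AQP3 (0.64) above 0, and for KIF20A (-1.16), TROAP (-1.08), CDC6 (-1.06), TPX2 (-0.94) and TUBA3E (-0.92) below it. TNIP3 lay under the 95th percentile of the olfactory genes on all 54 arrays, TUBA3E on 46 and ZNF814 on 21, so the size and rank of their values cannot be read. Against nicotine the largest differences were H2AC25 (1.49), H2BC21 (0.86), MT1HL1 (0.68), GSTA1 (0.65) and PTTG1IP (0.62) above 0, and CLSPN (-1.39), KIF20A (-1.26), BLM (-1.21), TROAP (-1.20) and CDC6 (-1.18) below it. GSTA1 lay under that percentile on all 54 arrays, H2AC25 on 10, which include all those of smoke extract and of radiation plus nicotine, and CLSPN on all 3 of the combination. Groups of 3 arrays are too small for the search for single arrays that stand far from their group.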

How the results depend on the processing

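Of the 4 comparisons, the counts of calls moved by more than 1.5 times under some alternatives. For the interaction at 24 h the count of 474 became 152 (25 above the sum and 127 below) with the fit limited to the compared groups, 122 (15 and 107) with only the 27 arrays at 24 h, 755 (301 above) after quantile normalization, 819 (233 and 586) over genes above the median level, 1125 (397 and 728) with the olfactory receptor covariate, and 234 (143 below) with a 1.5-fold minimum. Replication genes below the sum numbered 10 in each of the first 2 of these fits, against 20. The difference from 2 h went to 159 over genes above the median level and 192 with the covariate, against 105. The comparison with cisplatin gave 6, 24, 139 and 132 for the compared groups, the 27 arrays, quantile normalization and the covariate, against 70. The comparison with nicotine gave 18, 87 and 380 for the compared groups, the 27 arrays and the covariate, against 199. The cause was not tested. Fits with fewer arrays have fewer residual degrees of freedom by construction, and they also differ in the arrays that set the spread. Calls for the interaction numbered 122 with the 27 arrays at 24 h and 152 with the fewer arrays of the compared groups. Against cisplatin and nicotine the order was the reverse, with 24 and 87 calls from the 27 arrays and 6 and 18 from the compared groups. Leaving out each array in turn gave 212 to 1498 calls for the interaction, 40 to 580 above and 172 to 918 below, 21 to 27 mitosis and 14 to 21 replication genes, 66 to 323 for the difference from 2 h, 44 to 889 against cisplatin and 97 to 1335 against nicotine. Of the named genes, CDKN1A ranged from -0.072 (without replicate 3 of the combination) to 0.44 and was -0.018 without radiation replicate 1, and TIPARP ranged from -0.14 to 0.0048 (without radiation replicate 1), with no call in any of these fits. With the replicate number as a block 481, 106, 78 and 198 genes were called, of which 133 of 135 above and 329 of 339 below were shared for the interaction, and 0 of 65 named calls were lost. Of the 65, 10 were lost without the trend, 13 over all rows, 2 after quantile normalization, 1 with the mean of a gene's rows and 0 with the covariate.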
